A study of Mus musculus with 6 samples.

Results

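Complement genes and complement receptors were examined in bulk RNA sequencing of mouse bone marrow derived macrophages (BMDMs), cells that are matured into macrophages in culture. The 9 genes were the rows of the deposited count table named C1qa, C1qb, C1qc, C3, Cfb, Cfp, C3ar1, C5ar1 and Itgax, out of 16519 genes in the table, and all 9 passed the filter on low counts. In 3 libraries (KO) the cells came from Trmt61af/fLysmCre mice, which carry floxed Trmt61a and a Cre recombinase at the Lyz2 gene that acts in myeloid cells. In 3 libraries (WT) they came from Trmt61af/f mice, which carry the floxed gene and no Cre. Both groups therefore share the floxed allele, and Cre was present in KO alone, so loss of Trmt61a and presence of Cre cannot be told apart. The Trmt61a product is the catalytic subunit of a methyltransferase that places N1-methyladenosine on tRNAs. The labels name no strain, age or stimulus, and they leave unsaid whether libraries of one genotype are separate mice or cultures. The p-values thus rest on the spread of these 6 libraries alone, and that spread may be technical.

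Complement is a cascade of blood and tissue proteins that tags particles for uptake, recruits leukocytes and can lyse membranes. C1q recognises antibody complexes and dying cells and starts the classical route, C3 is the protein on which all routes meet, and factor B and properdin form and stabilise the C3-cleaving enzyme of the alternative route. Small fragments of C3 and C5 signal through the receptors encoded by C3ar1 and C5ar1, while integrins such as that containing CD11c, the Itgax product, bind C3 fragments left on a surface. Macrophages are a main source of C1q in tissues and myeloid cells make properdin, whereas much of the C3 and factor B of blood comes from the liver.

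The libraries held between 37021855 (WT 1) and 41033179 (WT 3) counts, and the 9 genes took between 0.585% (WT 1) and 0.632% (WT 3) of them. Trmt61a was lower in every KO library (0.608 ± 0.128 counts-per-million, CPM) than in every WT library (4.64 ± 0.648 CPM; SD, n = 3), as the labels say. All 8 macrophage markers were at or above 172 CPM in every library (lowest for Fcgr1), among them Csf1r, the receptor gene for the main macrophage growth factor (3930 to 5116 CPM), and Adgre1, which encodes F4/80 (1973 to 2404 CPM). Of these 8 markers 1 passed between KO and WT, Lyz2, the lysozyme gene at which Cre is placed, which averaged 9503 ± 1161 CPM over KO libraries and 18874 ± 2120 CPM over WT libraries (SD, n = 3; edgeR, log2 fold change -0.99, adjusted p = 0.00735). The adjusted p of Lyz2 in edgeR was 0.147 without KO 2 and 0.0671 without WT 1. The summed level of the 8 markers, Lyz2 among them, did not overlap, at 33192 to 36327 CPM in KO and 41706 to 46429 CPM in WT. Lyz2 alone ran from 8488 to 10769 CPM in KO and from 17037 to 21194.5 CPM in WT. The gap in the sum is therefore no measure of macrophage number. The markers other than Lyz2 had log2 fold changes between -0.09 and 0.03 (edgeR), and none of them passed. KO 1 and WT 2 were the lowest libraries in summed cycling cell and neutrophil markers. In bulk RNA, fewer cells of a type and less RNA per cell cannot be told apart.

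None of the 9 genes passed between KO and WT (0 of 9 in edgeR, DESeq2 and limma voom; Benjamini-Hochberg adjusted p over 12605 genes under 0.05), where 0.0317% of all tested genes passed in edgeR. In edgeR 0 of the 9 had an unadjusted p under 0.05, where 3.1% of all tested genes did. The log2 fold changes of KO minus WT lay between -0.08 (C1qa) and 0.23 (Itgax), with a median of 0.03 for the 9 genes and 8.4e-05 for all tested genes, and 6 were above 0. For 7 of the 9 genes the 95% interval lay within 1.3-fold in either direction, which held for 64.8% of all tested genes with at least 1 CPM. The intervals of Cfb and Itgax were wider, and that of Itgax reached from 0.610-fold to 2.26-fold. Each edgeR adjusted p of the 9 genes was 0.999949, and the smallest exact permutation p that 3 against 3 libraries allow is 0.1.

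**Figure D1:**
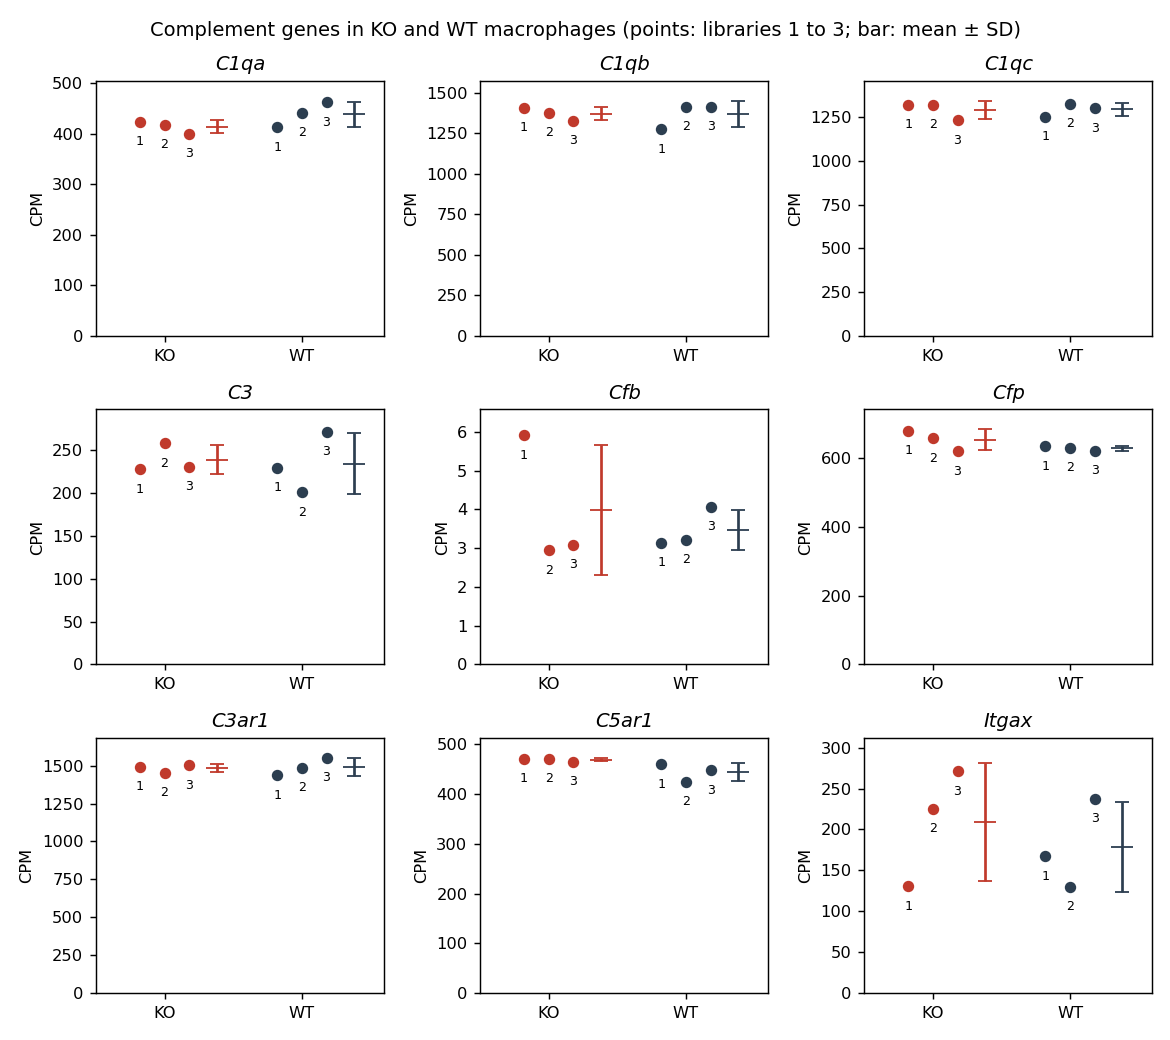
Level of each of the 9 complement genes in CPM (vertical axis, from 0) in KO and WT libraries; points are libraries 1 to 3 and the bar beside them is the mean ± SD (n = 3). KO and WT points overlap for every gene except C5ar1, and Itgax and Cfb have the widest spread.

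C1q was the complement protein with the most transcript. Its 3 chains are encoded by C1qb (Entrez Gene 12260), C1qc (12262) and C1qa (12259), which lie next to each other on one strand of chromosome 4 within 18719 bases (136880126 to 136898844, mm10). C1qb stood at 1407, 1378 and 1326 CPM in KO 1 to 3 and at 1276, 1414 and 1413 CPM in WT 1 to 3. The genotypes overlapped, the lowest value being WT 1. Its log2 fold change was 0.0027 with a 95% interval from -0.14 to 0.14 (edgeR).

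C1qc stood at 1320, 1320 and 1231 CPM in KO and at 1252, 1327 and 1301 CPM in WT, again with overlap. Its log2 fold change was -0.0027 with an interval from -0.13 to 0.13. C1qa stood at 423, 418 and 399.6 CPM in KO and at 412, 441 and 462 CPM in WT. WT 2 and WT 3 were above every KO library, but WT 1 lay among them. In edgeR its log2 fold change was -0.08 (standard error 0.06, unadjusted p = 0.189; exact two-sided permutation p = 0.3).

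The C1qb and C1qc sequences are shown because these neighbours had like profiles over the 6 libraries, with a root mean square difference of 0.03 between their centred log2 CPM values. That of C3 is shown for the component on which all routes meet, and that of Itgax for the gene that varied most. They are RefSeq promoter sequences of GRCm38.p6, the assembly of mm10, from up to 250 bases before the transcript start and outside the annotated gene, written from 5′ to 3′ in the direction of transcription. Of the 9 genes 7 had an entry, C1qa and Cfb being the others. Capitals mark matches on either strand to AGGAAG (the core bound by ETS factors such as PU.1), TTGCNNAA (C/EBP) or TGANTCA (AP-1).
C1qb, chr4:136886201-136886450, minus strand
C1qb: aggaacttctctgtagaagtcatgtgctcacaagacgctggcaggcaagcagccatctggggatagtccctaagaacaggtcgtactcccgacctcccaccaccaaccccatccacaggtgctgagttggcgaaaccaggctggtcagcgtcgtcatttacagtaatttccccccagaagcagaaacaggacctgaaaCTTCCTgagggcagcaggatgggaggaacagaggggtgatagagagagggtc
C1qc, chr4:136892937-136893164, minus strand
C1qc: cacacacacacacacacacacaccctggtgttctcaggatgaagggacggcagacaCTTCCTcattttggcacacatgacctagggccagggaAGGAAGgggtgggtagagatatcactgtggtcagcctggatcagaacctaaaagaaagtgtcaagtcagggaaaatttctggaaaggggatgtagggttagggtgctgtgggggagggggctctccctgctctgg
C3, chr17:57228137-57228386, minus strand
C3: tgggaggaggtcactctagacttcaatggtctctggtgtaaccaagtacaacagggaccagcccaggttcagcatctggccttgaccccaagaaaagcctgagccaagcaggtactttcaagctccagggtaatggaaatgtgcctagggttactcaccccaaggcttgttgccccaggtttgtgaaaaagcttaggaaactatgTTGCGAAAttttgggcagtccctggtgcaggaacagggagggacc
Itgax, chr7:128129300-128129525, plus strand
Itgax: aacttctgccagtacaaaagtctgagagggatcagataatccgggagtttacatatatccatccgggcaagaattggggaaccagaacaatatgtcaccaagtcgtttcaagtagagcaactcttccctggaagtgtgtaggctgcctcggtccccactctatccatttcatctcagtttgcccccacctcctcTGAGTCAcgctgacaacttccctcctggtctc
Matches were counted over the full 250 bases before the start, annotated gene included, so that windows had one length. The ETS core was found in 3 of 7 such windows (C1qb, C1qc and C5ar1) and in 29.5% of all 32851 RefSeq windows; the matches of C5ar1 lie in the 202 bases that fall inside the annotated gene. The C/EBP motif was found in C3 alone, as TTGCGAAA from 45 to 38 bases before the start, and in 9.56% of all windows. The AP-1 motif was found in C3ar1 and Itgax and in 6.75% of all windows. A MAF half-site (TGCTGAC) was found in 0 of 7 and in 3.81% of all windows. No motif overlapped another kind of motif in these windows, and a match describes letters only.

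C3 (Entrez Gene 12266, chromosome 17, 57203967 to 57228136) encodes the central component. It stood at 228, 258 and 231 CPM in KO 1 to 3 and at 229, 201 and 272 CPM in WT 1 to 3. Both the lowest and the highest value were WT libraries, so the KO values lay inside the WT range. C3 had a log2 fold change of 0.03 with an interval from -0.21 to 0.27 (edgeR), and it was -0.07 without WT 2, -0.03 without KO 2 and -0.04 when KO 1 and WT 2 were both left out.

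Cfp (Entrez Gene 18636, chromosome X, 20925454 to 20931555) encodes properdin, which stabilises the alternative C3 convertase. It stood at 681, 659 and 621 CPM in KO and at 635, 632 and 622 CPM in WT. KO 1 and KO 2 were above the WT values, and KO 3 was the lowest of the 6 libraries. Cfp had a log2 fold change of 0.05 with an interval from -0.07 to 0.18, and it was 0.02 without KO 1. Properdin is also made by neutrophils, and the summed level of 9 neutrophil markers ran from 1611 to 2581 CPM in KO and from 1624 to 2959 CPM in WT, with KO 1 the lowest library for the markers and the highest for Cfp. The part of neutrophils in the Cfp level was not tested.

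Cfb (Entrez Gene 14962, chromosome 17, 34856374 to 34862514) encodes factor B, the protease subunit of the alternative convertase. It was scarce, at 5.91, 2.95 and 3.08 CPM in KO 1 to 3 and at 3.14, 3.21 and 4.07 CPM in WT 1 to 3, from 223, 117 and 126 counts in KO and 116, 128 and 167 counts in WT. KO 1 was high and the other KO libraries were below every WT library. The log2 fold change of 0.19 (standard error 0.29, edgeR) therefore rested on KO 1, and it fell to -0.21 with KO 1 left out and to -0.26 with both KO 1 and WT 2 left out. Cfb shares 2246 of its 2825 exonic bases with Gm20547, a GENCODE gene on the same strand that also spans C2, and counting could drop reads that fall in both. Gm20547 has no row in the deposited counts, so whether it was part of the counting is not known.

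Both anaphylatoxin receptors, which belong to the G protein-coupled receptors, were abundant. C3ar1 (Entrez Gene 12267, chromosome 6, 122847140 to 122856157) stood at 1494, 1452 and 1504 CPM in KO and at 1436, 1487 and 1552 CPM in WT. The WT range enclosed the KO range, and the log2 fold change was -0.0081 with an interval from -0.14 to 0.12.

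C5ar1 (Entrez Gene 12273, chromosome 7, 16246743 to 16259540) stood at 471, 471 and 465 CPM in KO and at 461, 425 and 448 CPM in WT. It was the only gene of the 9 whose genotypes did not overlap, with every KO library above every WT library, where 8.65% of all tested genes did not overlap (4.05% with KO higher). The closest libraries were KO 3 and WT 1, at 465 and 461 CPM. In edgeR the fold change on the log2 scale was 0.08 (standard error 0.06, interval from -0.04 to 0.20; unadjusted p = 0.185), and the exact two-sided permutation p was 0.1. The fold change of C5ar1 was 0.04 on the log2 scale without WT 2. C5ar2, the neighbouring gene for a second C5a receptor, averaged 24.4 ± 1.94 CPM in the KO libraries and 24.6 ± 0.745 CPM in the WT libraries (SD, n = 3; log2 fold change -0.0089).

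**Figure D2:**
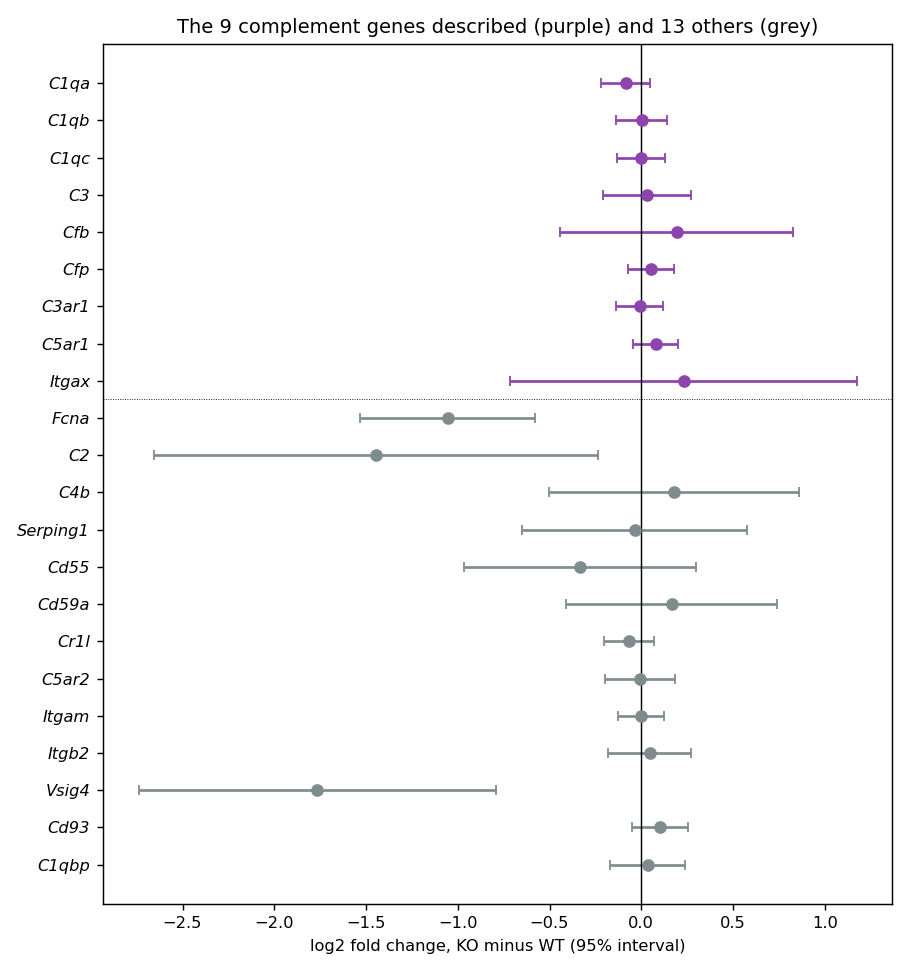
Log2 fold change of KO minus WT (horizontal axis) with its 95% interval from edgeR for the 9 complement genes (purple) and 13 other complement genes (grey). The intervals of all 9 cross 0, and those of Fcna, C2 and Vsig4 lie below 0 although none of them passed after adjustment.

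Itgax (Entrez Gene 16411, chromosome 7, 128129526 to 128150657) encodes CD11c, the alpha chain that with the beta chain Itgb2 forms complement receptor 4, and is widely used as a dendritic cell marker. It was the gene of the 9 that varied most between libraries. It stood at 130 CPM in KO 1, 225 in KO 2 and 271 in KO 3, and at 167 CPM in WT 1, 130 in WT 2 and 238 in WT 3. KO 1 and WT 2 were nearly equal at the bottom, KO 3 and WT 3 were at the top, and the genotypes overlapped over almost the whole range. In edgeR its log2 fold change was 0.23 (standard error 0.36, interval from -0.71 to 1.17; unadjusted p = 0.555; exact two-sided permutation p = 0.7).

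The fold change of Itgax moved with single libraries, from -0.0022 without KO 3 and 0.04 without WT 2 to 0.48 without KO 1 and 0.50 without WT 3. Without KO 1 and WT 2 together it was 0.29. Within a genotype the standard deviation of its log2 CPM was 0.50, larger than that of 99.4% of the tested genes with at least 10 CPM. That standard deviation was 0.04 for C5ar1 and for C3ar1, larger than that of only 8.05% and 8.9% of those genes.

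The other chains of these receptors varied less. Itgam, the CD11b chain of complement receptor 3 and the neighbour of Itgax on chromosome 7, stood between 1320 and 1410 CPM in the 6 libraries. Itgb2, the shared beta chain, stood between 803 CPM (KO 1) and 1018 CPM (KO 3), with WT 2 next lowest at 817 CPM. The ratio of Itgax to Itgam counts within a library was 0.0938, 0.166 and 0.199 in KO 1 to 3 and 0.127, 0.0921 and 0.172 in WT 1 to 3. Itgam shares 3450 of 5024 exonic bases with the GENCODE gene Gm49368 on the same strand, which has no row in the deposited counts.

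The libraries low in Itgax were also low in cycling cell markers. The summed level of 7 such markers was 243 CPM in KO 1, 345 in KO 2 and 425 in KO 3, and 308 CPM in WT 1, 247 in WT 2 and 428 in WT 3. Among 8442 genes with at least 10 CPM, those with the smallest root mean square difference from Itgax in centred log2 CPM over the 6 libraries were Iqgap3, a cytoskeletal scaffold gene (0.06), Psat1, a gene of serine synthesis (0.08), and Zranb3, a DNA helicase gene (0.08). Summed markers of mast cells, basophils and eosinophils were also lowest in KO 1 (20.5 CPM) and WT 2 (20.8 CPM) and highest in WT 3 (49.2 CPM). The same libraries were lowest in summed fibroblast and stromal markers (119 CPM in KO 1 and 117 in WT 2, and from 167 to 264 CPM in the other libraries). They were also lowest in B and T cell markers (0.769 and 0.653 CPM, with 3.92 CPM in WT 3 as the highest). The part of these cells in the Itgax level was not tested. Of the 8 dendritic cell markers, 7 were analysed here, and each lay under 1.5 CPM in every library. Their sum ran from 4.36 to 4.58 CPM in KO and from 4.26 to 5.68 CPM in WT. In contrast to the sums above, WT 2 was the highest library in this sum. WT 2 was also highest in summed hepatocyte markers (37.9 CPM, with 19.9 to 22.7 CPM in the other libraries).

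**Figure D3:**
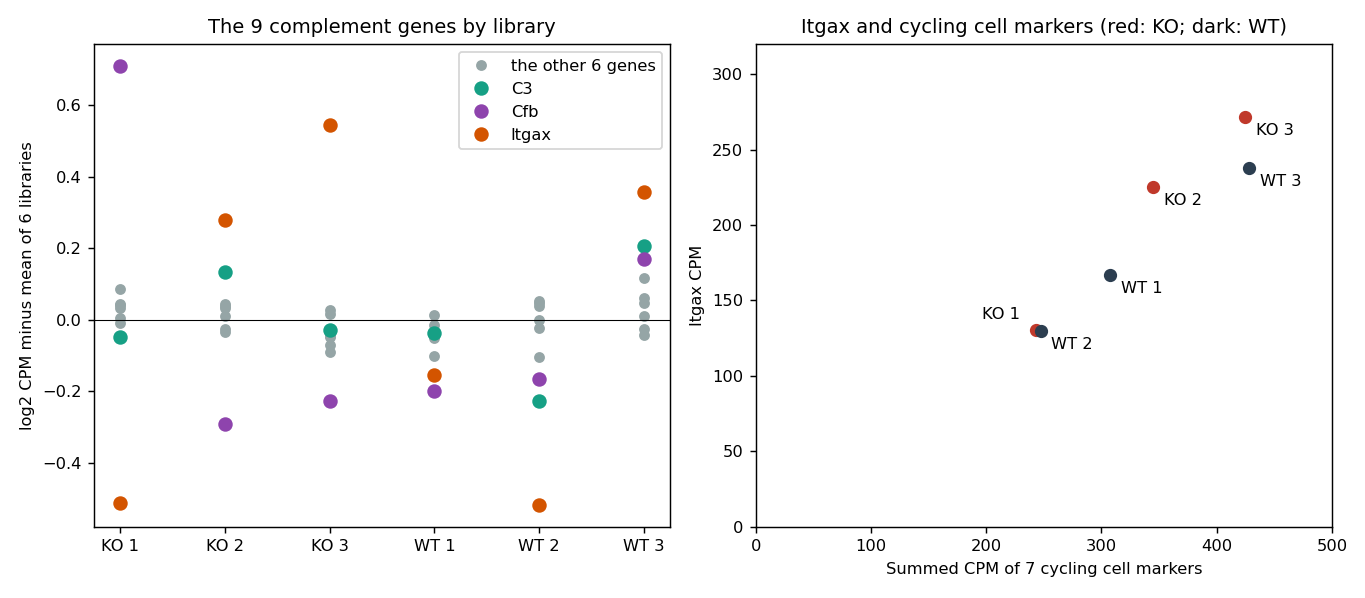
Left, log2 CPM of the 9 complement genes minus each gene's mean over the 6 libraries (vertical axis) by library, with Itgax, Cfb and C3 coloured. Right, Itgax in CPM against the summed CPM of 7 cycling cell markers in each library. Itgax spans from 130 to 271 CPM, with KO 1 and WT 2 lowest on both axes.

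By the same measure the genes nearest to C1qa were Sema4d, Nadk and Stk40 (0.02 each), those nearest to C1qb were Med20, Kat6b and Arfgef1 (0.02 each), and those nearest to C1qc were Npat, Rab43 and Plod3 (0.01, 0.02 and 0.02). These profiles were nearly flat, so that many genes lay as close: C1qc ranked 32nd of 8442 genes from C1qb, and C1qa ranked 302nd. The genes nearest to C3 were Lgals3bp, Tuba1a and Pprc1 (0.04 each). Those nearest to Cfb were Rrad (0.17), Adgre4 (0.20) and Tmem150b (0.21), which is a loose match.

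Levels of different genes were compared per kilobase of exon (CPM per kb). C1qb was highest at 1258 ± 52.0, followed by C1qc at 669 ± 21.0, C1qa at 409.7 ± 21.4, Cfp at 369.7 ± 13.7 and C3ar1 at 346 ± 9.56 CPM per kb (SD, n = 6). C5ar1 followed at 178 ± 6.97, C3 at 45.9 ± 4.86, Itgax at 40.3 ± 12.4 and Cfb at 1.32 ± 0.404 CPM per kb. The ranges over the 6 libraries overlapped between C1qa and Cfp, between Cfp and C3ar1, and between C3 and Itgax, and did not overlap between the other neighbours in this order. Of the alternative route genes, Cfp was thus near C1qa and Cfb lowest of the 9. If reads in the exons that Cfb shares with Gm20547 were dropped in counting, its level per length would be understated. The length is that of all GENCODE exons of a gene, so a gene whose main transcript is shorter would have a higher level per length.

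**Figure D4:**
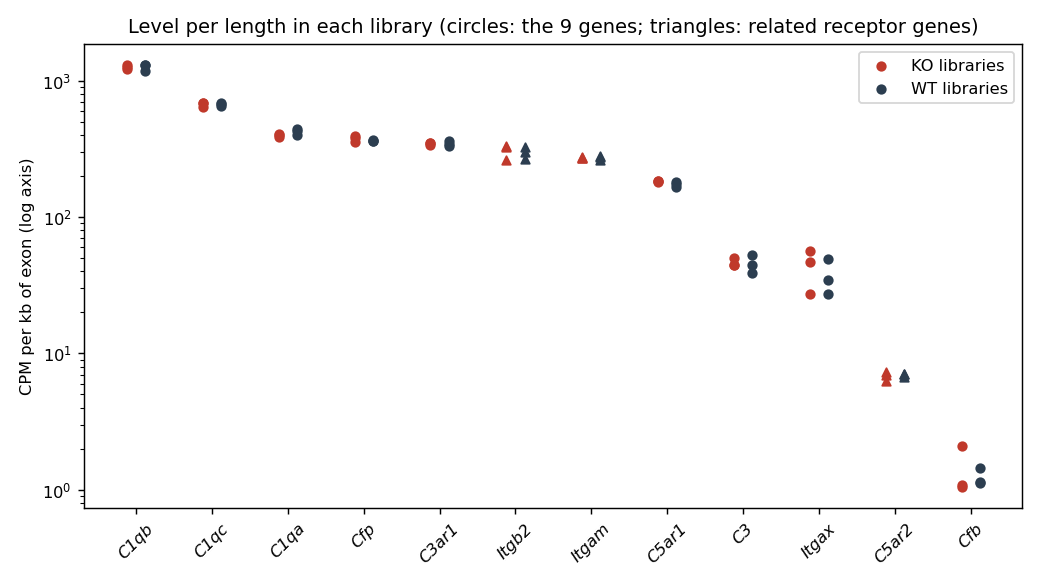
Level in CPM per kilobase of exon (log axis) of the 9 complement genes (circles) and of Itgb2, Itgam and C5ar2 (triangles) in each KO and WT library. C1qb is highest, near 1258, and Cfb lowest, near 1.32, with KO and WT points mixed.

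Of 51 other complement genes listed by role, 49 were analysed here and 27 passed the filter on low counts. Among these, 0 passed between KO and WT in edgeR and limma voom, where 4 of all 12605 tested genes passed in each. In DESeq2 1 of the 27 passed, where 16 of the 12605 did. An unadjusted p under 0.05 in edgeR was found for 3 of the 27 and for 3.1% of all tested genes. The median log2 fold change of the 27 was -0.0089, with 12 above 0 and 15 below. KO and WT did not overlap for 3 of the 27, Fcna, C2 and Vsig4, all with KO lower, where 4.59% of all tested genes did not overlap with KO lower.

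Recognition molecules and early proteases had 5 tested genes of 12, and only the ficolin genes exceeded 10 CPM in any library. Fcna (Entrez Gene 14133, chromosome 2, 25624665 to 25635440) encodes ficolin A, a recognition protein of the lectin route, and is named here because of its values. It stood at 8.24, 12.2 and 11.2 CPM in KO and at 17.9, 19.4 and 28.4 CPM in WT, so that every KO library was below every WT library. In edgeR its log2 fold change was -1.06 (standard error 0.21, adjusted p = 0.768), and DESeq2 called it (adjusted p = 7.6e-05). Over the 15 alternatives its adjusted p ran from 7.6e-05 to 0.99984. An antisense gene, Fcnaos, shares 90 of the 1374 exonic bases of Fcna and has no row of its own in the deposited counts. Without a known strand setting, reads in those shared bases cannot be told apart.

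Of the convertase components, C2 and C4b were tested. C2, the classical counterpart of factor B and its neighbour on chromosome 17, stood at 0.186, 0.327 and 0.294 CPM in KO and at 0.379, 0.904 and 0.925 CPM in WT, from between 7 and 38 counts per library. All KO values were below all WT values, at a log2 fold change of -1.44 (edgeR, standard error 0.55, unadjusted p = 0.0236, adjusted p = 0.999949). C2 shares 1656 exonic bases with Gm20547 and 161 with Zbtb12 on the opposite strand. C4b, which encodes C4, averaged 2.20 ± 0.435 CPM in the KO libraries and 1.95 ± 0.561 CPM in the WT libraries (SD, n = 3). Cfd, which encodes factor D, had at most 2 counts in a library, and Hc, the mouse C5 gene, between 2 and 9. Of the 7 terminal components 1 was tested (C8g).

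Among the regulators 0 of 9 tested genes had an unadjusted p under 0.05 in edgeR, where 3.1% of all tested genes did. Serping1, the C1 inhibitor gene, averaged 3.36 ± 1.05 CPM over KO libraries and 3.45 ± 0.607 CPM over WT libraries (SD, n = 3). Of the membrane regulators, Cr1l, which encodes Crry, averaged 78.0 ± 4.19 CPM (KO) and 81.7 ± 1.03 CPM (WT), while Cd55 was at 5.95 ± 1.78 and 7.49 ± 2.44 CPM and Cd59a at 3.37 ± 0.417 and 2.99 ± 0.866 CPM (SD, n = 3).

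Among receptors and their partners 10 of 11 genes were tested. Cd93, first described as a C1q receptor, averaged 1057 ± 68.5 CPM over KO libraries and 985 ± 55.6 CPM over WT libraries (SD, n = 3). Its log2 fold change was 0.10 with an interval from -0.05 to 0.25, and it was 0.05 without KO 1 and 0.06 without WT 3. C1qbp, a largely mitochondrial protein that binds C1q, had 0.03. Vsig4, a receptor for C3 fragments on tissue macrophages, stood at 0.398, 0.755 and 0.832 CPM in KO and at 1.49, 1.76 and 3.53 CPM in WT, from 15 to 34 counts in KO and 55 to 145 in WT. KO and WT did not overlap, with a log2 fold change of -1.77 (standard error 0.44), and the adjusted p was 0.999949 in edgeR and 0.0757 in DESeq2.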

How the data were processed

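The values are raw gene counts, deposited by the authors as 1 table of 6 libraries. TRIzol extraction and a VAHTS Universal V6 kit are named per the labels' protocols. Reads were handled with fastp, HISAT2 and HTSeq on mm10, per the submitters' processing notes. Tool versions, annotation and strand setting remain not given in the sources used here. A missing strand setting leaves overlapping and antisense genes unresolved.

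Groups and replicate numbers came from the sample titles. KO minus WT was tested with edgeR 4.0.16 in R 4.3.3 (TMM, filterByExpr with minimum count 10, robust quasi-likelihood F test in legacy mode) over 12605 genes, with Benjamini-Hochberg adjustment and a threshold of 0.05. Standard errors came from the fold change and its F statistic. CPM values use TMM-scaled library sizes, and 3 counts correspond to between 0.0731 and 0.0813 CPM; this covers counting error only. Single genes and ratios were also compared by exact two-sided permutation. Replicate pairs differed by a chi-square of 11.4 to 34.2 per degree of freedom, beyond sampling noise.

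Genes were matched by Entrez Gene ID to RefSeq GRCm38.p6 (16438 of 16519); exon lengths and overlaps came from GENCODE M21. On simulated counts the same steps recovered 62.7% of 1.5-fold changes, 83.6% of 2-fold and 93.9% of 4-fold changes. Of 171 calls over 12483 genes 11 were false. Between KO and WT only 4 of 12605 genes passed in edgeR. With Benjamini-Hochberg adjustment the p-value a gene needs is stricter when fewer genes pass. The recovered shares therefore do not carry over to KO against WT, and they may overstate what could be found there. Fcna, at a log2 fold change of -1.06, had an adjusted p of 0.768 in edgeR. Alternatives were other scalings, filters and tests (DESeq2 1.42.0, limma 3.58.1 voom), no robust estimation, a replicate block and leaving out each library.

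The genes and lists were chosen with earlier results of these data known, and the motifs with the promoter sequences in view. Genes named were the 9, 15 fixed relatives whatever their change, 1 of which is not reported here, Trmt61a, any other complement gene that passed, and the 3 nearest profiles of the C1q genes and of the 3 other genes with the widest range; Fcna, C8g and the macrophage markers Lyz2, Csf1r, Adgre1 and Fcgr1 were added after their values were seen.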

Additional observations from a re-analysis of the deposited data

How the results depend on the processing

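None of the 9 complement genes passed in any of the 15 alternatives, and of their 135 fold changes 120 kept their sign. The number of genes passing over the whole table was 4, with 16 in DESeq2, 8 with the replicate block and between 3 and 5 when each library was left out. For the other complement genes it was 0, with 1 in DESeq2 and 1 with the replicate block, Fcna both times (log2 fold change -1.05, adjusted p = 0.0414 with the block), and 0 whenever a library was left out. Same-numbered libraries had correlations of their deviations of -0.02, -0.30 and 0.58, so the numbers were not taken as pairs, and the replicate block changed no other call among the genes recomputed; the cause of these differences was not tested. The largest correlation of KO 1 was with WT 2 (0.65), not with its own number.

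Leaving out each library gave log2 fold changes from -0.13 to -0.04 for C1qa, -0.045 to 0.028 for C1qb, -0.025 to 0.031 for C1qc, -0.072 to 0.15 for C3, -0.21 to 0.37 for Cfb, 0.02 to 0.09 for Cfp, -0.035 to 0.023 for C3ar1, 0.04 to 0.10 for C5ar1 and -0.0022 to 0.50 for Itgax. It gave from 0.046 to 0.14 for Cd93, which kept its sign. For the other genes whose sign changed it gave from -0.17 to 0.20 for Serping1, -0.023 to 0.40 for Cd59a, -0.061 to 0.050 for C5ar2, -0.029 to 0.016 for Itgam, -0.029 to 0.15 for Itgb2 and -0.025 to 0.13 for C1qbp. With no low-count filter C1qc was at 0.00070 and Itgam at 0.0019. Without KO 1 and WT 2 together, an alternative chosen after seeing the data, C3 was at -0.036, Cfb at -0.26, Serping1 at 0.25, C5ar2 at 0.025 and Itgam at 0.0077. C2 had no value at 1 CPM or more in 3 libraries. Where an arm had 2 libraries the spread was pooled over genotypes. For the scarce genes Cfb, C2 and Vsig4 the intervals were wider than 1.5-fold in either direction.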

Other observations

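Of 6 count ratios between complement genes computed within each library, that of C1qa to C1qb was the one whose genotypes did not overlap. It was 0.301, 0.303 and 0.301 in KO 1 to 3 and 0.323, 0.312 and 0.327 in WT 1 to 3, with means of 0.302 ± 0.00124 and 0.321 ± 0.00777 (SD, n = 3). The exact two-sided permutation p was 0.1, the smallest that 3 against 3 libraries allow, and 0.6 after Benjamini-Hochberg adjustment over the 6 ratios. The difference of KO minus WT was -0.0189, and it ran from -0.0232 to -0.0158 when each library was left out in turn. As every KO ratio was below every WT ratio, its sign could not change, so that range adds no support. A ratio within a library does not depend on the scaling, and it cannot say which gene of a pair would differ. After adjustment the ratio of C1qa to C1qb was not told apart between KO and WT. The ratio of C1qc to C1qb ran from 0.920 to 0.981 with overlap (exact two-sided permutation p = 0.9).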
